A study of Mus musculus with 20 samples.

Results

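Fatty acid oxidation breaks down acyl chains from the carboxyl end and releases acetyl-CoA at each turn of a 4-step cycle. The 36 genes described here encode its machinery in mice, 20 for the mitochondrial and 16 for the peroxisomal pathway. They were listed by name and function, not by a measured value, although earlier results of these data were known. Each was found by its Ensembl identifier among the 46078 genes of the counts table. All 36 were among the 21464 genes that passed the filter on low counts and were tested.

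Long acyl chains enter mitochondria as carnitine esters, and carnitine palmitoyltransferase of the outer membrane is the regulated gate of this step. Malonyl-CoA, the precursor of fatty acid synthesis, inhibits that gate, so that a white adipocyte in the fed state stores fatty acids rather than oxidizing them. Peroxisomes shorten very long and branched chains, pass the shortened products on to mitochondria, and make hydrogen peroxide in the oxidase step instead of feeding electrons to the respiratory chain.

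The data are TRAP–seq libraries, in which mRNA is recovered with tagged ribosomes, here those of adipocytes of the epididymal fat depot (epiAT). All 20 mice carried AdipoERCre, a tamoxifen-inducible Cre recombinase under the adiponectin promoter, together with the NuTRAP reporter on a background written C576BL6 in the labels and C57BL/N in the study's methods. Tamoxifen was given to young mice of every group, controls included, so that the cells labelled then and their ribosomes carry the GFP tag. Ribosomes were pulled down from frozen whole tissue, and 1 library was made per mouse. In the short arm, C mice had chow and H mice a high-fat diet (HFD) for 12 weeks up to an age of 18 weeks, and HC mice had 12 weeks of HFD and then 8 weeks of chow up to an age of 26 weeks, with CC_s mice on chow at the same age, and n was 3 for each. In the long arm, CC_l mice had chow and HH mice HFD for 25 weeks up to an age of 31 weeks, and HHC mice had 25 weeks of HFD and then 8 weeks of chow up to an age of 39 weeks, with CCC mice on chow at the same age, and each of these groups held 2 mice. Per the methods, chow was a low-fat diet up to the harvest or diet switch, and another, standard chow for both diet groups during weight loss. The question was how far this pathway differs from chow in obesity (H, HH) and after weight loss (HC, HHC), so each of these groups was compared with the chow group of its own age.

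Libraries held 10710277 to 36738954 counts. Levels are given as CPM, a gene's share of the library's counts on edgeR's usual scale, with library sizes scaled by the trimmed mean of M values (TMM), and differences as log2 fold changes with their standard errors (SE) from edgeR's quasi-likelihood test. A gene was called where its nominal p was under 0.01 and its log2 fold change lay 1 or more from 0, and adjusted p is Benjamini-Hochberg adjusted over all 21464 genes. All 12 adipocyte markers were detected in every library, at 15943 to 141856 CPM in sum. Macrophage markers were also present in every library, at 202 to 5227 CPM in sum over 10 genes.

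Some libraries stood apart from their group. The summed CPM of 4 nuclear-retained RNAs (Malat1, Neat1, Kcnq1ot1 and Meg3) was 30219 and 37596 in C replicates 1 and 2, 20395 in HC replicate 3 and 28095 in CCC replicate 2, against 2787 to 12402 in the other 16 libraries. These 4 libraries also had low sums of adipocyte markers, 15943 to 35200 CPM, whereas C replicate 3 had the highest sum of all. The results are therefore given with and without these 4 libraries. Without them, C and CCC are left with 1 mouse each, which the fit assumes to vary like the other groups.

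The pathway was well represented on adipocyte ribosomes. Per kilobase of exon, Etfb stood at 763 CPM, at percentile 99.7 of the tested genes, followed among mitochondrial members by Etfa at 304 CPM per kilobase and Acaa2 at 162 CPM per kilobase. Among peroxisomal members, Scp2 stood at 237 CPM per kilobase, Ech1 at 211 and Phyh at 159, all above percentile 98. Cpt1a, the gate, stood at 8.58 CPM per kilobase, at percentile 78.1. Acad10 and Acot8 were the lowest, at 1.31 and 1.78 CPM per kilobase. Of the other mitochondrial members, Etfdh, Acadvl and Acad10 lay below the gate on this scale and the others above it. Lengths are the union of the annotated exons.

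**Figure D1:**
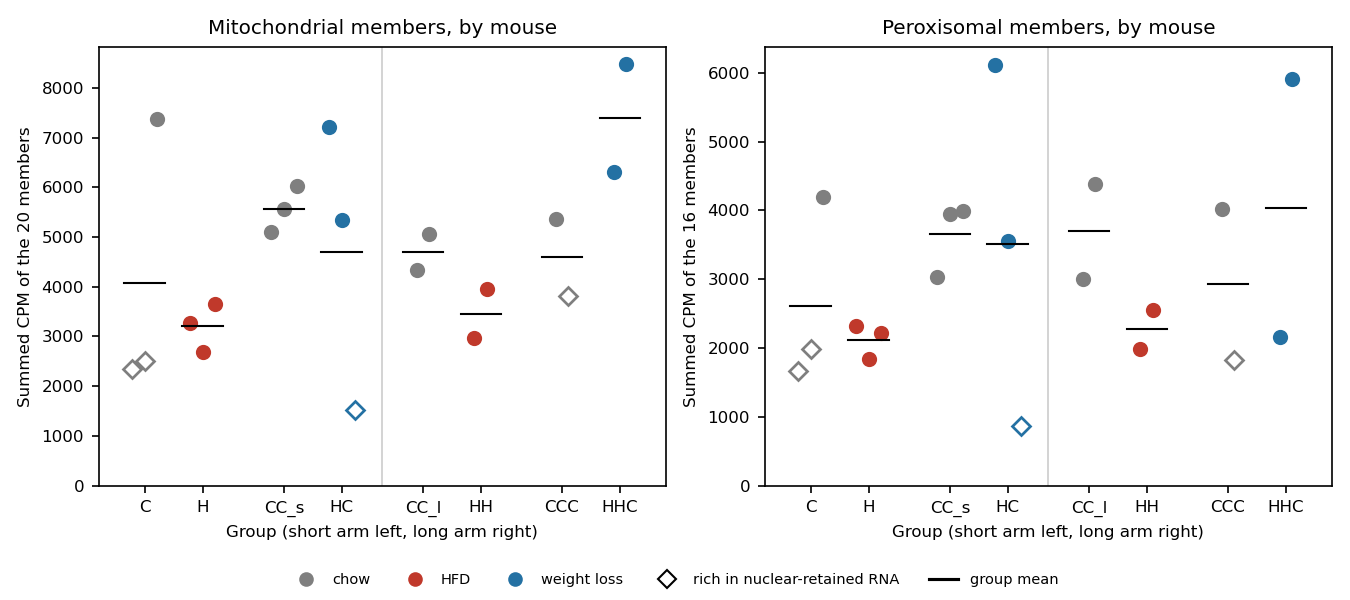
Summed CPM of the 20 mitochondrial (left) and 16 peroxisomal members (right) in each mouse, by group. Circles and diamonds are single mice (white diamonds are the 4 libraries rich in nuclear-retained RNA) and bars are group means; both HH mice lie below both CC_l mice in either panel, and both HHC mice lie above both CCC mice for the mitochondrial members.

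In obesity of the short arm, 3 members were higher in H than in C (Cpt1a, Acaa1b and Acot8) and 1 was lower (Acot2), 4 of 36 against 6.49% of all tested genes (3.57% higher, 2.92% lower). At an adjusted p under 0.05, 1 of 36 passed (Acot8) against 2.12% of all genes, and at a nominal p under 0.05, 5 were higher and 3 lower against 8.3% and 8.77%. The set as a whole lay close to the control level in this fit. The mitochondrial members summed to 2346, 2513 and 7370 CPM in the C mice and to 3278, 2683 and 3650 CPM in the H mice. The H mice were thus inside the wide range of C, with C replicate 3 far above the other C mice. The peroxisomal members summed to 1663, 1982 and 4193 CPM in C and to 2320, 1835 and 2217 CPM in H, again with overlapping groups. For 4 members every H mouse was below every C mouse and for 5 above, against 10.6% and 13.4% of all tested genes. The log2 fold change was below 0 for 24 of the 36 members, 66.7% against 56% of tested genes, with a median of −0.28 for mitochondrial and −0.22 for peroxisomal members against −0.15 over all tested genes.

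That picture depended on which C libraries were used. Without the 4 libraries rich in nuclear-retained RNA, where C replicate 3 stands alone for C, 11 members were called, 2 higher (Acaa1b and Acot8) and 9 lower, against 4.22% of all genes higher and 4.29% lower in that fit. The 9 were Cpt2, Acad11, Hadh, Echs1, Decr1, Etfa, Acot2, Pex11a and Phyh, with log2 fold changes from −1.29 (Decr1) to −3.46 (Acot2). The median of the 36 members was then −0.88 against 0.29 over all tested genes. With all 20 libraries and the nuclear-retained RNA as a covariate, 10 members were called, 2 higher and 8 lower, against 7.9% and 4.74% of all genes, with a member median of −0.94 against 0.11. Leaving out C replicate 3 instead turned the medians to 0.58 for mitochondrial and 0.25 for peroxisomal members. Of 12 adipocyte markers, 3 were called lower and 1 higher in H, with log2 fold changes from −3.76 to 2.02. Per 1000 CPM of these markers, the mitochondrial members overlapped, at 62.2 to 83.5 CPM in H and 52.0 to 81.4 CPM in C. Macrophage markers summed to 671.9 to 4177 CPM in H and 221 to 394 CPM in C, with 7 of 10 called higher. Endothelial markers were called higher for 4 of 5, adipocyte progenitor markers for 2 of 7 and mesothelial markers lower for 2 of 5. The part of these cells and of the nuclear-retained RNA in the member values was not tested.

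After weight loss in the short arm, no member was called in HC against CC_s by edgeR, none had a nominal p under 0.05 and none was called by DESeq2, against 1.74% of all tested genes called (1.57% higher, 0.172% lower) and 7.58% higher and 1.11% lower at a nominal p under 0.05. For 4 members every HC mouse was below every CC_s mouse and for 1 above, against 5.82% and 8.01% of all genes. The mitochondrial members summed to 5095, 5557 and 6016 CPM in CC_s and to 7215, 5347 and 1525 CPM in HC. HC replicate 3, which is rich in nuclear-retained RNA, lay below every other library, and the other 2 HC mice lay inside or above the CC_s range. The peroxisomal members behaved alike, with 3028, 3951 and 3994 CPM in CC_s and 6112, 3555 and 866 CPM in HC. The medians were −0.11 and −0.10 against 0.27 over all tested genes, and 22 of 36 members lay below 0, 61.1% against 35.5% of all genes. Without the 4 libraries, 11 of 36 lay below 0 and the median was 0.16 against 0 over all genes, and leaving out HC replicate 3 alone turned the medians to 0.18 and 0.30. With the nuclear-retained RNA as a covariate the direction was the other, with 28 of 36 below 0 and a median of −0.31 against 0.13. Relative to 1000 CPM of adipocyte markers, the mitochondrial members came to 67.8 to 95.7 CPM in HC and 42.6 to 66.7 CPM in CC_s. On that scale every HC mouse lay above every CC_s mouse, with a narrow gap between the nearest mice. The peroxisomal members overlapped on it, at 45.1 to 72.9 CPM in HC and 25.3 to 45.5 CPM in CC_s. Macrophage markers were called higher in HC for 7 of 10, at 583 to 1690 CPM in sum against 202 to 264 CPM in CC_s. Spermatid markers were called higher for 3 of 5, at 433.9 CPM in sum in HC replicate 3 and at most 7.23 CPM in the other HC and CC_s mice, and their part was not tested.

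In obesity of the long arm, 23 of 36 members lay below 0 in HH against CC_l, 63.9% against 57.3% of all tested genes, and 1 of 36 was called, Cpt1a, which was higher, against 6.79% of all tested genes (4.92% higher, 1.88% lower). No member passed an adjusted p of 0.05 in edgeR, against 2.07% of all genes, and Cpt1a was also the one member at a nominal p under 0.05, against 9.7% of genes higher and 7.69% lower. The mitochondrial members summed to 4344 and 5069 CPM in CC_l and to 2962 and 3956 CPM in HH. The peroxisomal members summed to 3002 and 4387 CPM in CC_l and to 1985 and 2560 CPM in HH. Both HH mice lay below both CC_l mice for either sum. For 22 of the 36 members both HH mice were below both CC_l mice, 61.1% against 28.9% of all tested genes, and for 6 both were above, against 26.3%. The medians were −0.61 for mitochondrial and −0.69 for peroxisomal members against −0.23 over all tested genes. None of the 4 HH and CC_l libraries is rich in nuclear-retained RNA, but the rich libraries of other groups enter the shared estimate of the spread. Without them, 5 members were called, Cpt1a higher and Hadh, Echs1, Crat and Acot2 lower, against 6.08% of genes higher and 4.76% lower. Acot2 was the one past an adjusted p of 0.05 in that fit (log2 fold change −1.64, SE 0.42, edgeR adjusted p = 0.0361, n = 2 and 2).

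Markers of other cells moved with the same comparison. Macrophage markers summed to 4146 and 5227 CPM in HH and to 212 and 441 CPM in CC_l, and all 10 were called higher. Adipocyte progenitor markers were called higher for 5 of 7 and endothelial markers for 5 of 5. Adipocyte markers summed to 29543 and 33706 CPM in HH and to 68788 and 77035 CPM in CC_l, with 1 of 12 called lower and a median log2 fold change of −1.35. For every 1000 CPM of adipocyte markers, the mitochondrial members came to 100.2 and 117 CPM in HH and to 63.2 and 65.8 CPM in CC_l, so the members were lower in HH in CPM and higher per unit of adipocyte marker mRNA. CC_l replicate 1 held 3114 CPM of spermatid markers against 9.04 to 61.5 CPM in the other 3 libraries, and without it the medians were −0.71 for mitochondrial and −0.93 for peroxisomal members. In tissue pulled down as a whole, fewer cells of a type and less mRNA per cell cannot be told apart, and the part of the other cells in the lower member levels was not tested.

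After weight loss in the long arm, the direction was the opposite. In HHC, 9 of 36 members lay below 0 against CCC, 25.0% against 52.1% of all tested genes, with a median of 0.71 for mitochondrial and 0.26 for peroxisomal members against −0.06 over all tested genes. No member was called by edgeR (3.12% of all tested genes were, 0.447% higher and 2.67% lower), 2 were higher and none lower at a nominal p under 0.05 (2.31% and 8.37% of all genes), and DESeq2 called 1, Acadl. The mitochondrial members summed to 5369 and 3818 CPM in CCC and to 6304 and 8472 CPM in HHC, without overlap. The peroxisomal members summed to 4023 and 1826 CPM in CCC and to 2168 and 5904 CPM in HHC, with overlap. For every 1000 CPM of adipocyte markers, the mitochondrial members came to 120 and 94.1 CPM in HHC and to 67.4 and 124 CPM in CCC, so on that scale the groups overlapped. Endothelial and mesothelial markers lay below 0 for 5 of 5 each, with medians of −2.04 and −1.73 and 1 called lower in each list, and their part was not tested. For 9 members, all mitochondrial, both HHC mice were above both CCC mice, against 8.49% of all tested genes, and for 2 below, against 20.3%. CCC replicate 2 is one of the 4 libraries rich in nuclear-retained RNA, and without them the median of the 36 members was 0.44 against 0 and 1 member, Acaa2, was called. With the nuclear-retained RNA as a covariate, the medians were 0.30 for mitochondrial and −0.10 for peroxisomal members against −0.11 over all tested genes.

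**Figure D2:**
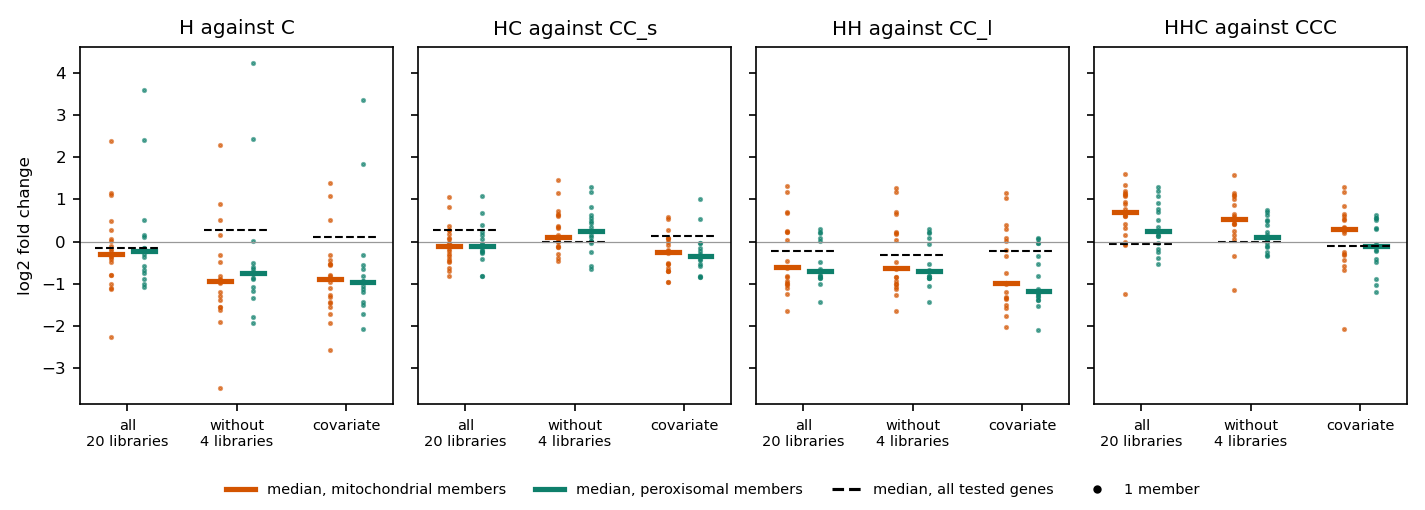
log2 fold changes of the members in the 4 comparisons under 3 fits: all 20 libraries, without the 4 libraries rich in nuclear-retained RNA, and with that RNA as a covariate. Dots are members, coloured bars the medians of the mitochondrial and peroxisomal members, and dashed lines the medians of all tested genes; in each fit both member medians lie below the dashed line in HH against CC_l, and the mitochondrial median lies above it in HHC against CCC.

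The 2 comparisons of the long arm were set against each other as a difference of differences, which uses separate mice on both sides. The HHC effect minus the HH effect was below 0 for 5 of 36 members, 13.9% against 49.7% of all tested genes, with a median of 0.95 against 0.01 over all tested genes. No member passed an adjusted p of 0.05 in edgeR, against 0.815% of all tested genes, 2 had a nominal p under 0.05 against 15.5%, and DESeq2 called none. In the short arm the HC effect minus the H effect had a median of 0.12 against 0.31 over all tested genes. That median was 1.16 against −0.18 without the 4 rich libraries and 0.58 against 0.06 with the covariate. No member passed the adjusted threshold there in edgeR or DESeq2 (0% of all genes in edgeR), and 3 were at a nominal p under 0.05, against 11.8% of all tested genes. The HH effect minus the H effect was below 0 for 22 of 36 members, against 50.5% of all genes, and 2 had a nominal p under 0.05, against 5.79%. Without the filter on low counts, Acot2 passed in both the HC effect minus the H effect (2.06, edgeR adjusted p = 0.0211) and the HHC effect minus the HH effect (2.69, edgeR adjusted p = 0.0140), and no other member passed in either under any setting tried.

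**Figure D3:**
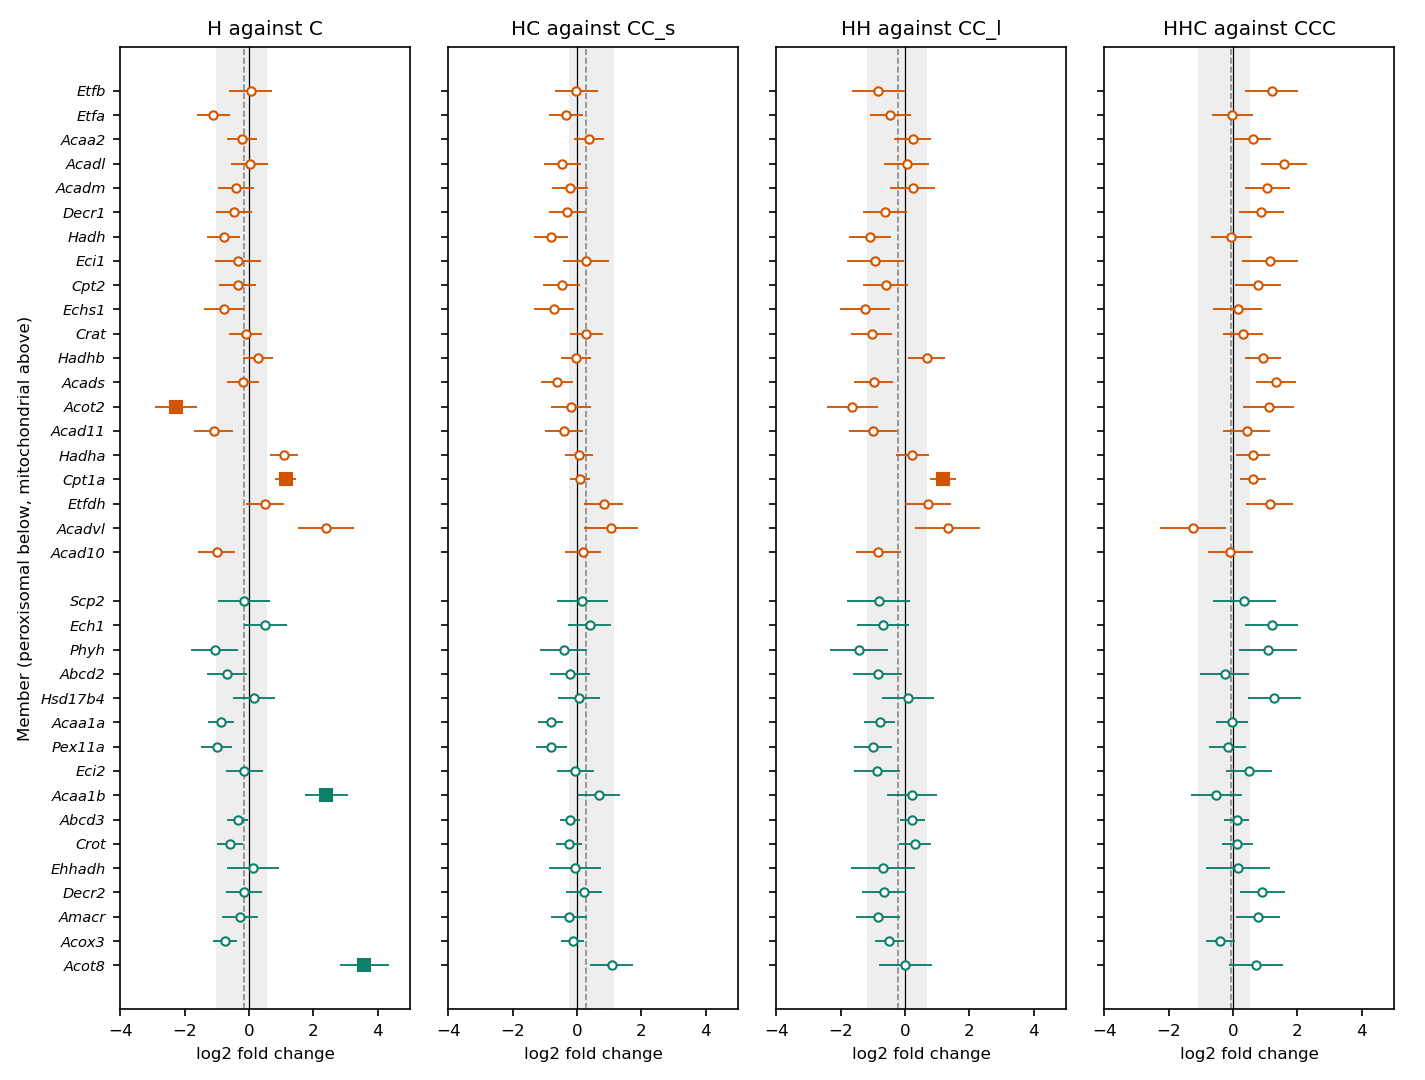
log2 fold changes of the 36 members with SE bars in the 4 comparisons, ordered by level per kilobase within mitochondrial (upper) and peroxisomal members (lower). Filled squares are called members, the grey band and the dashed line are the middle 50% and the median of all tested genes; Acot8, Acaa1b, Cpt1a and Acot2 are called in H and Cpt1a in HH.

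Cpt1a, the gate of mitochondrial oxidation and the first gene of the carnitine shuttle, was the one member called in both obesity comparisons (chr19:3322334-3385733, plus strand, GRCm38). It stood at 38.5, 28.6 and 51.1 CPM in C and at 73.7, 99.8 and 88.3 CPM in H, a log2 fold change of 1.15 (SE 0.33, n = 3 and 3, edgeR adjusted p = 0.0767). In the long arm it stood at 33.6 and 50.7 CPM in CC_l and at 93.5 and 96.4 CPM in HH, a log2 fold change of 1.17 (SE 0.40, n = 2 and 2, edgeR adjusted p = 0.141). Every HFD mouse was above every chow mouse of its age. After weight loss it stood at 63.8, 69.1 and 61.1 CPM in HC and at 59.8, 58.7 and 63.0 CPM in CC_s, a log2 fold change of 0.10 (SE 0.32), and at 117 and 54.0 CPM in HHC against 68.0 and 42.4 CPM in CCC (0.63, SE 0.40). The groups overlapped in both. The HC effect minus the H effect was −1.05 (SE 0.46, edgeR adjusted p = 0.380), which does not pass. Without the 4 rich libraries, the H value was 0.89 at a nominal p of 0.0473 and was no longer called, as was the case with only the compared groups (1.06) and without C replicate 2 (0.96) or H replicate 2 (1.04), and the HH value was called at 1.17. The HH call was lost when any 1 of the 4 mice was left out and without the filter on low counts, where Acot2 was called instead. The higher Cpt1a in both obesity groups thus went against the direction of most other members.

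The 250 bases before the RefSeq start site of Cpt1a are printed because it was the one member called in both obesity comparisons. That start site lies inside the gene span of GENCODE given above. Sequences are from RefSeq (GRCm38.p6), read 5′ to 3′ on the gene's strand, and 30 of the 36 members had an entry. Capitals mark 4 matches, which on the gene's strand are, in order, 1 hexamer bound by nuclear receptors such as PPAR (AGGTCA, here read on the other strand), 2 GC boxes (GGGCGG, also on the other strand) and 1 CCAAT box. The stretch is chr19:3323051-3323300 on the plus strand.
Cpt1a: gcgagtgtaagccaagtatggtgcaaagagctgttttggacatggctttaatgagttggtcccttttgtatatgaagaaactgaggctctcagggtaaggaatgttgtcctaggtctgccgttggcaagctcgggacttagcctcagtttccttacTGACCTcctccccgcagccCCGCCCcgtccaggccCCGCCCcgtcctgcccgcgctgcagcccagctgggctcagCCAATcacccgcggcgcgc

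The other carnitine acyltransferases did not follow Cpt1a. Cpt2 (which turns acylcarnitine back to acyl-CoA in the matrix) had log2 fold changes of −0.36, −0.47, −0.60 and 0.78 in H, HC, HH and HHC, with both HH mice below and both HHC mice above their controls. Crat, the acyltransferase for short chains, was at −1.04 in HH (SE 0.64) with both HH mice below both CC_l mice, and between −0.10 and 0.32 in the other 3 comparisons. Crot, which makes medium-chain carnitine esters in the peroxisome for export, was between −0.59 and 0.31 in all 4. None of these 3 was called.

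The acyl-CoA dehydrogenases, which set the chain length taken up by each turn, were not called in any of the 4 comparisons by edgeR on all 20 libraries with the filter on low counts and no covariate. Acadl (long chains) was 1.60 higher on the log2 scale in HHC than in CCC (SE 0.72, edgeR adjusted p = 0.440) and Acads (short chains) 1.34 higher (SE 0.62, edgeR adjusted p = 0.455), and neither was called. Acads stood at 106 and 41.6 CPM in HHC against 36.8 and 21.7 CPM in CCC, whereas in HH it stood at 34.4 and 27.2 CPM against 54.8 and 66.1 CPM in CC_l. All mice of a group lay on one side of their controls in each case, and the HHC effect minus the HH effect for Acads was 2.31 (SE 0.87, edgeR adjusted p = 0.213). In HC it was lower than in CC_s in all mice (−0.63), and the HHC effect minus the HC effect was 1.97 (SE 0.79, edgeR adjusted p = 0.390). Acadm (medium chains) was at 1.07 in HHC and between −0.40 and 0.24 in the other 3 comparisons.

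The other 3 dehydrogenases had different patterns. Acad11, which acts on long chains, was at −1.10 in H and −0.998 in HH without being called, and was called in H without the 4 rich libraries (−1.91, SE 0.40). Acad10 was at −1.01 in H and −0.83 in HH, with all HFD mice below their controls in both, but 17.1% of its 50-base words are shared with other genes, mostly Acad12, so reads may be split. Acadvl (very long chains) was at 2.38 in H (SE 0.87, edgeR adjusted p = 0.171) from 0.218, 3.27 and 2.15 CPM in C to 15.0, 8.21 and 6.29 CPM in H. Its exons overlap those of Dvl2 on the opposite strand over 42.9% of their bases, and without a stated strand setting reads in that overlap cannot be assigned, so its level is uncertain.

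The enzymes that finish the mitochondrial cycle differed in sign in HH. Hadhb, a subunit of the trifunctional protein for long chains, was at 0.68 in HH and Hadha, the other subunit, at 0.23, and Hadha was at 1.10 in H (SE 0.43, edgeR adjusted p = 0.205) with all H mice above all C mice. Hadh, the dehydrogenase for short and medium chains, was at −0.79, −0.82, −1.09 and −0.06 in H, HC, HH and HHC, with all mice below their controls in HC and HH. In HC that order rested on a narrow gap, with HC at 137 to 547 CPM and CC_s at 549 to 809 CPM. Echs1, the short-chain hydratase, was at −0.78, −0.70, −1.25 and 0.15. No difference between these enzymes was tested, and 19.7% of the words of Hadhb are shared with the pseudogene Gm13910.

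Acaa2, the mitochondrial thiolase that releases acetyl-CoA, stood at 124, 130 and 334 CPM in C and at 169, 171 and 165 CPM in H (log2 fold change −0.22, SE 0.47). It stood at 193, 178 and 196 CPM in CC_s, 389, 230 and 119 CPM in HC, 241 and 234 CPM in CC_l and 283 and 276 CPM in HH. The H and HC groups overlapped with their controls, and both HH mice were above both CC_l mice at a log2 fold change of 0.24 (SE 0.58). In CCC it stood at 158 and 424 CPM and in HHC at 529 and 364 CPM (0.62, SE 0.58), and without CCC replicate 2 and the other 3 rich libraries the difference was 1.58 (SE 0.40, edgeR adjusted p = 0.910), with 1 CCC mouse left.

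The auxiliary enzymes that handle double bonds lay on the same side in the long arm. Eci1 and Decr1 in mitochondria and Eci2, Ech1 and Decr2 in peroxisomes were all lower in both HH mice than in both CC_l mice, with log2 fold changes from −0.92 (Eci1) to −0.61 (Decr1), and all 5 were above 0 in HHC, from 0.51 (Eci2) to 1.20 (Ech1), with groups overlapping for all except Decr1. None of the 5 was called in either comparison. Ech1, a dienoyl-CoA isomerase and the most abundant of them, stood at 564 and 893 CPM in CC_l, 377 and 529 CPM in HH, 478 and 135 CPM in CCC and 351 and 1057 CPM in HHC. In the short arm it stood at 151, 255 and 423 CPM in C, 433, 382 and 367 CPM in H, 520, 466 and 425 CPM in CC_s and 1130, 604 and 114 CPM in HC. Its groups overlapped in H (0.51, SE 0.66), HC and HHC.

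Electrons from the acyl-CoA dehydrogenases pass to the electron transfer flavoprotein, whose subunits Etfa and Etfb were the most abundant mitochondrial members. Etfa stood at 459, 449 and 863 CPM in C and at 271, 272 and 278 CPM in H, with every H mouse below every C mouse (−1.11, SE 0.52, edgeR adjusted p = 0.290). It stood at 538, 627 and 630 CPM in CC_s and 805, 443 and 167 CPM in HC, at 477 and 589 CPM in CC_l and 301 and 477 CPM in HH, and at 668 and 1092 CPM in CCC and 461 and 1279 CPM in HHC. The order of the mice in HH and CC_l rested on a narrow gap between the higher HH mouse and the lower CC_l mouse.

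Etfb, the partner subunit, did not track Etfa in H. It stood at 323, 352 and 1299 CPM in C and 734, 542 and 777 CPM in H (0.06, SE 0.67), and at 900, 994 and 1089 CPM in CC_s and 1357, 1325 and 250 CPM in HC. In the long arm it stood at 939 and 1073 CPM in CC_l, 410 and 727 CPM in HH (−0.82, SE 0.82), 1171 and 242 CPM in CCC and 1408 and 1857 CPM in HHC (1.21, SE 0.83). Both HH mice were below and both HHC mice above their controls, without a call. For Etfb, 44.8% of 50-base words are shared with Gm45233, a transcript not among the counted genes. Etfdh, which hands the electrons to ubiquinone, was above 0 in all 4 comparisons, from 0.50 in H to 1.14 in HHC, with no call. It stood at 20.4 and 140 CPM in HHC against 31.4 and 41.5 CPM in CCC, so the HHC value rests on 1 mouse. Its groups also overlapped in H and HC, and both HH mice were above both CC_l mice.

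**Figure D4:**
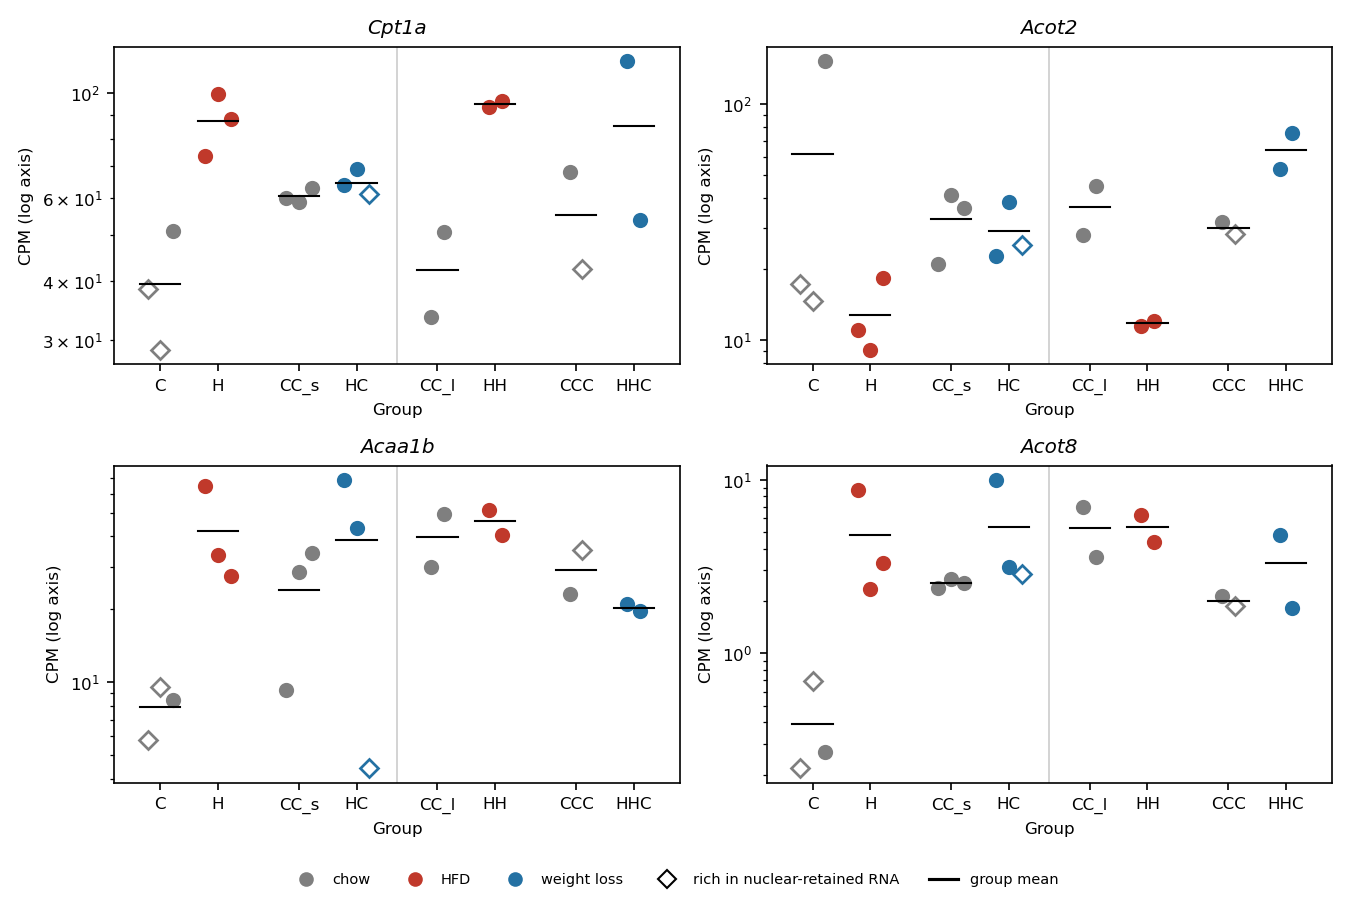
CPM of the 4 called members in every mouse, by group, on log axes. Circles and white diamonds are mice (diamonds are the libraries rich in nuclear-retained RNA), bars are group means; Cpt1a, Acaa1b and Acot8 are higher in all 3 H mice than in all 3 C mice, whereas Acot2 in C depends on 1 mouse at 152 CPM.

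Acot2, a mitochondrial thioesterase that frees fatty acids from CoA, was called lower in H but its groups overlapped. It stood at 17.3, 14.6 and 152 CPM in C and at 11.03, 9.08 and 18.2 CPM in H (−2.27, SE 0.66, n = 3 and 3, edgeR adjusted p = 0.0847). The call rests on C replicate 3, without which the log2 fold change was −0.32. In the long arm it stood at 27.9 and 45.3 CPM in CC_l and at 11.5 and 12.1 CPM in HH (−1.63, SE 0.80, edgeR adjusted p = 0.299), then at 31.5 and 28.1 CPM in CCC and at 53.3 and 75.3 CPM in HHC (1.11, SE 0.78). Both HH mice were below and both HHC mice above their controls, and the HHC effect minus the HH effect was 2.74 (SE 1.12, edgeR adjusted p = 0.249). In CC_s it stood at 21.0, 41.0 and 36.3 CPM and in HC at 22.7, 38.6 and 25.3 CPM. For Acot2, 27.7% of words are shared with other genes, mostly its paralogue Acot1.

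Acot8 is the peroxisomal thioesterase that ends shortening. In the main edgeR fit Acot8 was the one member past an adjusted p of 0.05 in H, and not under every setting. It stood at 0.218, 0.695 and 0.269 CPM in C, from 4, 14 and 6 counts, and at 8.67, 2.34 and 3.31 CPM in H, from 228, 86 and 69 counts (log2 fold change 3.58, SE 0.76, n = 3 and 3, edgeR adjusted p = 0.0212). The edgeR adjusted p was 0.0613 with the replicate number as a block, 0.0704 with only the compared groups and 0.0756 without the 4 rich libraries, and 0.110, 0.0506 and 0.114 without C replicate 1, C replicate 3 and H replicate 1. Other called members passed 0.05 in H in some fits. Among them were Acadvl, Acot2 and Acaa1b without the filter on low counts, and Cpt1a, Acot2 and Acaa1b with DESeq2. Acaa1b also passed with only the compared groups. With the nuclear-retained RNA as a covariate, Acad11, Etfa, Acot2, Pex11a and Phyh passed beside Acot8. The fit that leaves 1 C mouse is not counted here. The H level of Acot8 lay within the range of the later groups. Acot8 stood at 2.38, 2.66 and 2.54 CPM in CC_s, 9.96, 3.13 and 2.88 CPM in HC, 6.98 and 3.602 CPM in CC_l, 6.29 and 4.36 CPM in HH, 2.15 and 1.87 CPM in CCC and 4.78 and 1.83 CPM in HHC. The lowest 3 libraries of all 20 were the C mice, and CC_s was also called against C (2.66, SE 0.74, edgeR adjusted p = 0.393). The HH effect minus the H effect was −3.57 (SE 1.11, edgeR adjusted p = 0.848). Of its exon bases, 12.3% overlap Snx21 on the opposite strand.

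Acaa1b, a peroxisomal thiolase, was called higher in H than in C. It stood at 5.77, 9.53 and 8.42 CPM in C and at 64.8, 33.5 and 27.5 CPM in H (2.41, SE 0.68, n = 3 and 3, edgeR adjusted p = 0.0739), with every H mouse above every C mouse. It stood at 9.27, 28.6 and 34.3 CPM in CC_s, 68.4, 43.5 and 4.41 CPM in HC, 30.04 and 49.4 CPM in CC_l, 51.5 and 40.7 CPM in HH, 23.2 and 35.1 CPM in CCC and 20.9 and 19.7 CPM in HHC. The H level of Acaa1b overlapped the later chow groups (CC_s, CC_l and CCC), which ran from 9.27 to 49.4 CPM. The log2 fold changes in HC, HH and HHC were 0.69, 0.22 and −0.52 without a call. With the nuclear-retained RNA as a covariate, the H value was 1.85 and was not called. Of its exon bases, 11.4% overlap Dlec1 on the opposite strand.

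Its near-identical paralogue Acaa1a showed the opposite direction. Acaa1a was below the control in every mouse in H (−0.87, SE 0.40), HC (−0.82, SE 0.40) and HH (−0.79, SE 0.49), with edgeR adjusted p of 0.278, 0.577 and 0.411, and at −0.03 in HHC. Of the 50-base words, 30.5% of Acaa1b and 12.9% of Acaa1a are shared, so the split of reads between them is uncertain.

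The 3 peroxisomal and mitochondrial members called in H besides Cpt1a each hold a CCAAT box before the start, as do 13 of the 30 members with an entry and 37.5% of 27025 genes searched over the same 250 bases and both strands. The 30 bases around the match nearest the start are printed, with CCAAT or its reverse complement ATTGG in capitals. They lie at chr12:83987611-83987640 (plus strand), chr2:164804925-164804954 (minus strand) and chr9:119157114-119157143 (minus strand), in GRCm38.p6.
Acot2: ggtttcATTGGgtgagaggcttttaagagc
Acot8: caagcacatcgaCCAATcacaatctgcgtc
Acaa1b: agtcgccctctgATTGGctgcagaatgggt

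The full binding element of PPAR with RXR, the nuclear receptors known to drive this pathway in liver, was searched on both strands as a repeat of AGGTCA with 1 free base between the copies, and as the same repeat of AGGNCA. It was found in no member and in 0.0407% and 0.4% of genes, and the element of the oestrogen-related receptors, TNAAGGTCA, in no member and 1.3% of genes. The single hexamer AGGTCA, which the longer elements contain, was found in 5 members (Cpt1a, Acadm, Acadvl, Echs1 and Scp2) and in 15.8% of genes. The GC box GGGCGG was found in 19 members and 35.4% of genes. The matches other than that of Cpt1a are printed with 30 bases each, capitals marking the hexamer (AGGTCA or its reverse complement TGACCT). They lie, in the order printed, at chr3:153944864-153944893, chr11:70015498-70015527, chr7:140116487-140116516 and chr4:108118639-108118668, all on the minus strand of GRCm38.p6.
Acadm: gTGACCTtcgggctccggtgacactgggca
Acadvl: atggatcaccctAGGTCAggtagaatacag
Echs1: accagcccgctcAGGTCAcgggtccacccc
Scp2: gtctaacacagtAGGTCAaaagaacccata
These 4 members did not share a direction in any of the obesity comparisons, with log2 fold changes in HH of 0.24 (Acadm), 1.33 (Acadvl), −1.25 (Echs1) and −0.81 (Scp2), none of them called. A match is a description of the letters, and regions outside these bases were not searched.

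The transporters that bring acyl-CoA into the peroxisome had opposite signs in HH. Abcd2, which carries very long and polyunsaturated chains, was at −0.68, −0.22, −0.85 and −0.25 in H, HC, HH and HHC, and Abcd3, which carries branched and dicarboxylic chains, at −0.35, −0.21, 0.23 and 0.12. In HH both mice were below their controls for Abcd2 and above them for Abcd3, and the SE was 0.77 and 0.39. For Abcd3 that order rested on a narrow gap, with CC_l up to 91.9 CPM and HH from 94.5 CPM. No difference between these transporters was tested. Acox3, an oxidase for branched chains, was at −0.75 in H (SE 0.36) and −0.49 in HH, with all HFD mice below their controls. The bifunctional enzymes were close to the control level in H and HC, with Ehhadh at 0.12 and −0.06 and Hsd17b4 at 0.16 and 0.06, and Hsd17b4 was at 1.29 in HHC (SE 0.81).

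Scp2, the thiolase and sterol carrier that finishes branched chains, was the most abundant peroxisomal member. It stood at 349, 557 and 878 CPM in C, 591, 538 and 478 CPM in H, 559, 1074 and 1107 CPM in CC_s and 2141, 807 and 124 CPM in HC. In the long arm it stood at 892 and 1240 CPM in CC_l and 384 and 828 CPM in HH (−0.81, SE 0.99), then at 1472 and 255 CPM in CCC and 406 and 1803 CPM in HHC. Both HH mice were below both CC_l mice, and the other 3 comparisons overlapped. The spread within HC, CCC and HHC was the widest among these values, and 29.7% of its words are shared, mostly with the pseudogene Scp2-ps2.

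Branched chains enter through Phyh, which starts the removal of a carbon from phytanic acid, and Amacr, which turns their methyl group for the oxidase. Phyh stood at 138, 168 and 567 CPM in C, 139, 84.0 and 195 CPM in H, 422, 465 and 489 CPM in CC_s and 574, 388 and 66.9 CPM in HC. In the long arm it stood at 242 and 415 CPM in CC_l, 84.9 and 160 CPM in HH (−1.42, SE 0.90, edgeR adjusted p = 0.419), 385 and 70.7 CPM in CCC and 289 and 677 CPM in HHC (1.09, SE 0.90). Both HH mice were below both CC_l mice, and the other groups overlapped. Without the 4 rich libraries Phyh was called in H (−1.91, SE 0.50, edgeR adjusted p = 0.0550), where 1 C mouse is left. Amacr was at −0.84 in HH, with both mice below their controls, and Pex11a, which divides peroxisomes, was at −0.998, −0.80, −1.01 and −0.17 in H, HC, HH and HHC, with all HC and HH mice below their controls and no call.

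**Figure D5:**
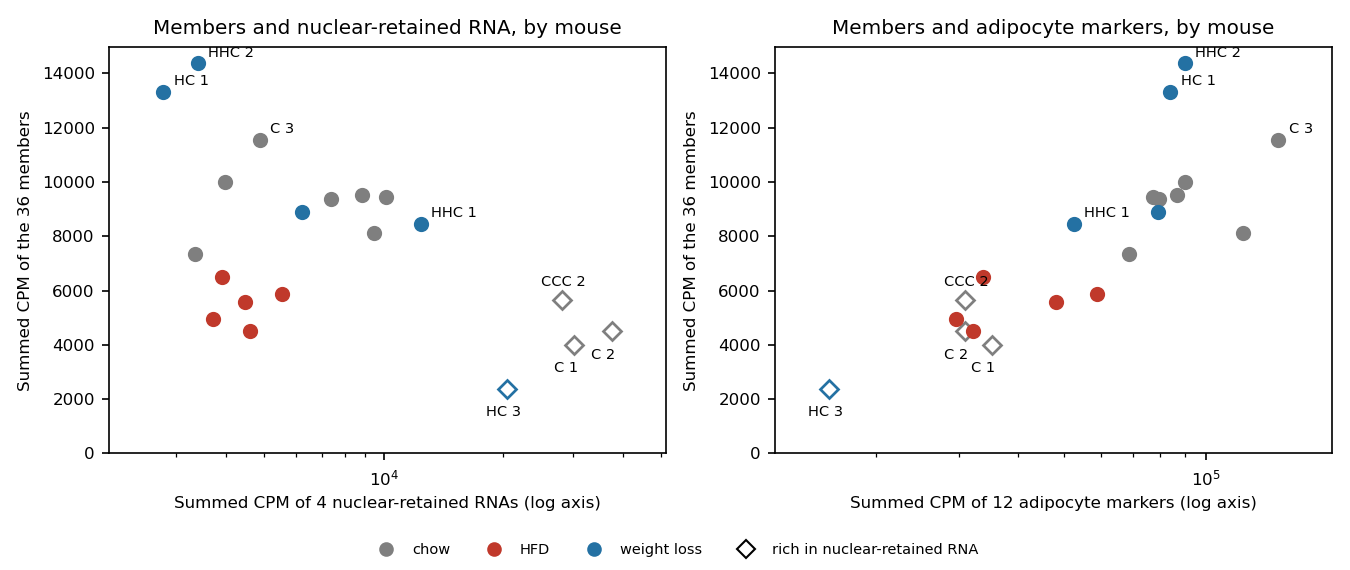
Summed CPM of the 36 members against the summed CPM of 4 nuclear-retained RNAs (left) and of 12 adipocyte markers (right) in the 20 libraries, on log x axes. White diamonds are the 4 libraries above 20000 CPM of nuclear-retained RNA; HC 3 has the lowest member sum and the lowest adipocyte marker sum.

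Genes around the pathway were taken from lists of its other enzymes, regulators and neighbours. Their counts stand against the shares of all tested genes called, which for H were 3.57% higher and 2.92% lower, for HC 1.57% and 0.172%, for HH 4.92% and 1.88%, and for HHC 0.447% and 2.67%. Of 27 other mitochondrial oxidation and carnitine genes tested, 2 were lower and none higher in H, and none was called in HC or HH. Acacb, which makes malonyl-CoA at the mitochondrial surface and so restrains the gate, fell in H, from 92.3, 293 and 191 CPM in C to 28.5, 28.2 and 52.6 CPM in H (−2.40, SE 0.55, edgeR adjusted p = 0.0316). All 3 H mice were below all 3 C mice. It was at −0.89, −1.88 and −1.33 in HC, HH and HHC without a call. Cpt1b, the muscle form of the gate, stood at 0 to 0.384 CPM in the 20 libraries and did not pass the filter.

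Of 29 other peroxisomal genes tested, 1 was lower in H and 1 in HH, the same gene, Acot4, a thioesterase for succinyl-CoA and dicarboxylic chains (−3.21 and −2.88, SE 0.71 and 0.86, edgeR adjusted p = 0.0264 and 0.0959). Of 16 peroxins, which build peroxisomes, 2 were lower in HH (Pex6 at −1.35 and Pex11g at −1.26) and none was called after weight loss, and Pex6 was also lower in H (−1.21). Of 18 genes of the tricarboxylic acid cycle, which takes up the acetyl-CoA, none was called in any of the 4 comparisons, and 17 lay below 0 in H, 13 in HC, 17 in HH and 2 in HHC, against 56%, 35.5%, 57.3% and 52.1% of all tested genes.

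Regulators of the pathway were lower in H for 3 of 17 and in no other comparison. Ppargc1a, a coactivator of oxidative genes, stood at 18.4, 21.9 and 11.5 CPM in C and at 5.40, 3.21 and 3.26 CPM in H (−2.12, SE 0.47, edgeR adjusted p = 0.0264), with all H mice below all C mice. Its highest levels, 18.4, 21.9 and 20.4 CPM, were in 3 of the 4 libraries rich in nuclear-retained RNA, and the part of that RNA was not tested. Ppargc1b was at −2.23 (SE 0.59, edgeR adjusted p = 0.0581) and Prkaa2, a catalytic subunit of AMP-activated kinase, at −1.45 (SE 0.50, edgeR adjusted p = 0.144). Ppara itself was at −0.82, −0.30, −1.34 and 0.86 without a call.

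Of 13 PPAR target genes outside oxidation, 1 was higher in H and 1 in HC, the same gene, and none in HH. Angptl4, a lipoprotein lipase inhibitor, stood at 98.4, 120 and 213 CPM in C and at 585, 773 and 360 CPM in H (1.99, SE 0.43, edgeR adjusted p = 0.0240) and was also called in HC (1.28, SE 0.42, edgeR adjusted p = 0.536). In HHC, 3 of 13 were higher and none lower. Pdk4, the kinase that shuts off pyruvate entry when fatty acids are burnt, stood at 300 and 56.8 CPM in HHC and 14.2 and 14.1 CPM in CCC (3.66, SE 0.56, edgeR adjusted p = 0.0974), and at 52.0, 59.4 and 58.1 CPM in HC and 21.4, 28.2 and 28.3 CPM in CC_s. Every weight-loss mouse was above its controls. So was every HFD mouse, at 16.6, 20.1 and 18.7 CPM in H against 9.58, 8.83 and 14.3 CPM in C. In the long arm Pdk4 stood at 30.2 and 43.7 CPM in HH against 14.5 and 16.5 CPM in CC_l. The log2 fold changes in H and HH were 0.76 and 1.26, without a call. Cidea, a lipid droplet protein, stood at 90.8 and 34.9 CPM in HHC and 7.05 and 2.31 CPM in CCC (3.75, SE 0.96, edgeR adjusted p = 0.202). The third, Fabp3, stood at 115 CPM in HHC replicate 1 and at 0.108 CPM in HHC replicate 2, so its call rests on 1 mouse.

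Control mice of different ages were compared as a check of how far the chow groups differ without HFD. By the methods, the older group of each pair had also moved from the low-fat to the standard chow. Age and type of chow therefore cannot be told apart here. In CC_s against C, 6 of 36 members lay below 0 against 56.3% of all tested genes, with a median of 0.53 against −0.17, and 1 was called, Acot8, against 2.45% of all tested genes. In CCC against CC_l, 22 of 36 lay below 0 against 51.6% of all genes, with a median of −0.24 against −0.05, and none was called by edgeR, with none at a nominal p under 0.05 (3.92% of all genes higher, 7.59% lower). As raw values, the size of the CC_s median lay above those of all 36 members in H (−0.25) and HC (−0.10). It lay below those in HH (−0.67) and HHC (0.62). These raw sizes leave out the shift of all tested genes, whose medians were −0.15, 0.27, −0.23 and −0.06 in H, HC, HH and HHC. By side, 30 of 36 members lay above 0 in CC_s and 27 in HHC, and 23 lay below 0 in HH. C holds 2 and CCC 1 of the 4 libraries rich in nuclear-retained RNA.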

How the data were processed

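Ribosome-bound mRNA of epiAT adipocytes from 20 mice was sequenced. Per the submitters' processing notes and the methods, the authors used FastQC 0.11.9, Trim Galore 0.6.6, HISAT2 2.2.1 on mm10 and featureCounts of Subread 2.0.1, and deposited read counts per gene as whole numbers without normalization. Which annotation was used, whether strand was read and how pairs were counted is not given in the sources used here. Between 74.4% and 89.2% of the nonzero counts of a library were even, so halved counts were tried. Overlapping genes on opposite strands, and the shares of 50-base words found in other transcripts, were taken from GENCODE vM21 (GRCm38).

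From the deposited counts, edgeR 4.0.16 in R 4.3.3 (filterByExpr, TMM, quasi-likelihood F test, common biological coefficient of variation 0.680) was fitted to all 20 libraries in 8 groups at once, and p-values were adjusted over 21464 genes. Depth was 10710277 to 36738954 counts, and 3 counts correspond to 0.0815 to 0.251 CPM, a limit that covers counting error only. The labels call the replicates biological, and 16 within-group pairs of libraries differed by more than sampling noise. The procedure was also run on simulated data, and the outcome of that run is not reported here.

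The members and gene lists were chosen with earlier results of these data known. Values in every library are given for members called in any comparison, for Cpt1a and for the 3 members of each pathway with the highest level per kilobase, and other genes are named where called or where they are Cpt1b, Ppara, Ppargc1a or Acacb. Some genes that this rule names are not reported here. Acads, Acadvl and the genes with values beyond that rule were chosen after their values were seen. Replicate numbers were not taken as pairs. Of same-number pairs, 5 of 18 in the short and 2 of 12 in the long arm correlated above 0.1. In groups of 2 mice the deviations mirror each other, so the long-arm values repeat. Shared handling by number can therefore not be excluded. Alternatives were RLE normalization, no filter, DESeq2 1.42.0, only the compared groups, the replicate number as a block, halved counts, an adjusted p threshold, leaving out members with a further location, and leaving out each mouse. A fit without the 4 libraries above 20000 CPM of nuclear-retained RNA, a covariate of that RNA and the difference between arms were added after seeing the data. Figures were drawn with matplotlib in python.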

Additional observations from a re-analysis of the deposited data

How the results depend on the processing

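Groups of 2 and 3 mice limit every value here, and C and CCC are compared through 1 mouse each where the libraries rich in nuclear-retained RNA are left out. The direction of the medians was the same under RLE normalization, no filter, DESeq2, only the compared groups and halved counts. For H against C, the 4 called members became 7 with DESeq2, 2 with only the compared groups, 1 at an adjusted p under 0.05, 11 without the 4 rich libraries and 10 with their RNA as a covariate. The median was −0.94 for mitochondrial and −0.75 for peroxisomal members without the rich libraries, and −0.95 for peroxisomal members with the covariate. For HH against CC_l, the 1 called member became 0 at an adjusted p under 0.05, 2 with only the compared groups, 5 without the rich libraries and 7 with the covariate, and the medians with the covariate were −0.98 and −1.17. For HHC against CCC, the 0 called members became 2 without a filter (Acadl and Acads), 1 with DESeq2 (Acadl) and 1 without the rich libraries (Acaa2), and the mitochondrial median was 0.30 with the covariate. Without a filter, 1 member (Acot2) passed in the HC effect minus the H effect and 1 (Acot2) in the HHC effect minus the HH effect. The cause of these shifts was not tested.

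With the replicate number as a block, 3 members were called in H against C and 0 in HH against CC_l, where Cpt1a lost its call (1.15 on the log2 scale), and Acot2 lost its call in H (−1.81). The numbers were not taken as pairs in the main fit, and the block changed no other count. Some values turned sign, and not all of them were near 0, as Ech1 in H stood at 0.51 in the main fit. Acot8 in HH was −0.054 with RLE, −0.056 with DESeq2, −0.064 with halved counts, −0.063 without the rich libraries and −0.035 with the covariate. Etfa in HHC was 0.10 with RLE, 0.027 without a filter, 0.10 with DESeq2, 0.14 with halved counts, 0.11 with only the compared groups and 0.45 without the rich libraries. Etfb in HC was 0.014 without a filter, 0.051 with the replicate block and 0.37 without the rich libraries, and in H −0.0074 with only the compared groups, −0.81 without the rich libraries and −0.80 with the covariate. Without the rich libraries Phyh in HC was 0.0067 and Scp2 in HHC −0.35. With the covariate Ech1 was −0.55 in H and −0.026 in HC, Scp2 −0.40 in HC and −0.48 in HHC, and Acaa1b in HH −0.021.

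Leaving out each mouse gave 2 to 4 called members in H, 0 in each case in HC, HH and both differences of effects, and 0 to 1 in HHC. The 2 came without H replicate 1 and without H replicate 2, and the 1 in HHC, Acox3, without HHC replicate 1. The mitochondrial and peroxisomal medians ran from −0.53 to 0.58 and −0.47 to 0.25 in H, from −0.63 to 0.18 and −0.61 to 0.30 in HC, from −0.83 to −0.31 and −0.93 to −0.43 in HH, and from 0.46 to 1.08 and 0.03 to 0.71 in HHC. The highest values came without C replicate 3 in H and without HC replicate 3 in HC. In H, Acaa2 ran from −0.45 to 0.41, Etfb from −0.25 to 1.02 and Scp2 from −0.36 to 0.24. In HC, Acaa2 ran from −0.11 to 0.71, Etfa from −0.97 to 0.054, Etfb from −0.34 to 0.43, Acot2 from −0.45 to 0.013, Acaa1b from −0.0035 to 1.21, Ech1 from −0.39 to 0.88, Scp2 from −0.97 to 0.68 and Phyh from −1.01 to 0.063. In HH, Acaa1b ran from −0.092 to 0.65 and Acot8 from −0.36 to 0.57. In HHC, Cpt1a ran from −0.039 to 1.08, Etfa from −0.93 to 0.53, Acot8 from −0.14 to 1.25 and Scp2 from −1.09 to 2.11.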
